A study of Homo sapiens with 6 samples.

Results

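The 4 knockdown libraries of MDA-MB-231 cells, siNCOA3 and siSHC1 at 24 h and 48 h after transfection, were taken as 1 group and compared with the 2 siControl libraries, with time as a block. This grouping uses all 6 libraries of the series, and each knockdown library was set against the siControl library of its own time, which gives 4 pairs. MDA-MB-231 is a human cell line grown from a triple-negative breast cancer. The siRNAs were a control (siControl), one against NCOA3 and one against SHC1, each with 1 library at each time. The 2 knockdown pairs of a time share their siControl library, so that an error in that library moves both pairs together. Nothing in the labels states that cultures were separate, so p-values reflect the spread among these 6 libraries alone, and that spread may be technical. Of 11690 genes tested, 2988 moved the same way in all 4 pairs, 1553 higher and 1435 lower.

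NCOA3 is a coactivator that nuclear receptors recruit to switch on their target genes. SHC1 is an adaptor that links activated receptor tyrosine kinases to RAS and so to ERK signalling. A small interfering RNA guides the RNA-induced silencing complex to a matching transcript, which is then cut. The same complex can also lower other transcripts that pair with only the first bases of the guide, its seed, usually within their 3′ UTR.

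Levels are printed as deposited, in FPKM, a count of fragments corrected for gene length and sequencing depth. Differences were taken as log2 of the scaled FPKM plus 1, a scale that understates the change of low genes. Total FPKM per library ran from 495518 to 553073. From the spacing of values below 0.3 FPKM, a rough estimate of library depth was 1.00 to 1.45 relative to siControl at 24 h, but at most 48.9% of the ratios used lay on whole-fragment steps, so the order of depths is uncertain. VIM, the mesenchymal intermediate filament, stood at 887 to 1020 FPKM, PGR was listed at 0 throughout, and ESR1 and CDH1 reached at most 0.0922 and 0.572 FPKM, while SPARC, listed as a marker of the line, stayed below 0.509 FPKM. ERBB2 and GATA3, listed as low in the line, stood at 26.9 to 35.5 and at 4.67 to 5.56 FPKM. Each targeted transcript was low only in its own libraries: NCOA3 stood at 15.4% and 16.3% of siControl after siNCOA3 and at 115% and 111% after siSHC1, and SHC1 at 13.4% and 13.3% after siSHC1 and at 98.0% and 90.8% after siNCOA3.

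The question of the pooled comparison is which transcripts change whichever of the 2 genes is knocked down. LSP1, an actin-binding protein best known from leukocytes, was the gene that passed the test, as lower, but it entered the test only through its siControl levels, was listed at 0 in all 4 knockdown libraries and lost the call under several settings. CBFB, which pairs with RUNX transcription factors, and FMNL1, a formin that builds actin filaments, stood lower in all 4 knockdown libraries than in both siControl libraries, but did not pass the test. Higher in all 4 pairs, again without passing, stood CPA4, a carboxypeptidase, GPRC5A, an orphan receptor induced by retinoic acid, TMCC1, a membrane protein of the endoplasmic reticulum, and SAMD4B, an RNA-binding protein of the Smaug family.

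By limma 1 of 11690 genes, or 0.00855%, passed a Benjamini-Hochberg adjusted p of 0.05, with 0 higher (0.00%) and 1 lower. Before adjustment 523 genes stood under 0.05, no more than that cutoff lets through when no gene differs. The model has 3 residual degrees of freedom, and its error holds library noise together with any difference between the siRNAs. Changes particular to 1 siRNA therefore count as error here. Of all tested genes 13.3% were higher and 12.3% lower in all 4 pairs, counted without a test. At a size of at least 1.5-fold in every pair this became 7 genes, or 0.0599%, 1 higher (0.00855%) and 6 lower (0.0513%). Among the lower ones LSP1, CTSW, ISY1-RAB43 and PTGES3L-AARSD1 met the filter on low values only through siControl. The balance of these 7 is therefore partly set by the filter. Without scaling of the libraries 71.5% of the genes of like sign were higher, and with equal totals 33.6%, against 52.0% here, so that the balance of higher and lower follows the scaling.

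CBFB binds no DNA itself and stabilises RUNX proteins on theirs. It stood at 35.6 FPKM in siControl at 24 h and at 35.8 FPKM in siControl at 48 h. After siNCOA3 it stood at 11.3 and 10.7 FPKM, and after siSHC1 at 17.4 and 12.3 FPKM, at 24 h and 48 h. All 4 knockdown libraries lay far below the 2 siControl libraries, and the siSHC1 library of 24 h was the highest of the 4. After scaling, 29.2% and 30.2% of the siControl level was left with siNCOA3, and 45.8% and 34.9% with siSHC1. The pooled difference was -1.46 ± 0.18 (SE, 4 against 2 libraries), which did not pass over all genes (limma adjusted p = 0.913, unadjusted p = 0.000159). It stayed between -1.60 and -1.23 under every alternative tried that could give it, with limma adjusted p from 0.0108 to 1.00. The siSHC1 level was higher than the siNCOA3 level by 0.40 (95% interval 0.11 to 0.69), a difference that did not pass (limma adjusted p = 0.0832).

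Of the factors that CBFB serves, RUNX1 stood at 38.0 to 48.2 FPKM and RUNX2 at 17.9 to 20.8 FPKM over the 6 libraries, and RUNX3 reached at most 0.0154 FPKM. Their knockdown and siControl libraries overlapped. In a list of 12 tested genes of RUNX factors, corepressors and reported RUNX targets, CBFB was the member lower in all 4 pairs and 0 members were higher. That is 8.33% lower, against 12.3% lower and 13.3% higher among all tested genes. The median of the list was -0.03, against 0.00 for all tested genes, and turned to 0.01 without scaling.

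The 3′ UTR of CBFB, on chromosome 16, was examined because it holds both 7-base words that ranked first in these knockdowns. Among 16178 words, ranked by the difference in mean between carriers and other genes over its standard error, a score that grows with the number of carriers, GTCAAGA came first for siNCOA3 and GCCCATC for siSHC1. The mean of carriers was -0.07 against -0.01 for other genes after siNCOA3, and -0.17 against 0.02 after siSHC1. Ranks 2 and 3 for siSHC1 were TTTTAAA and TTTAAAA, carried by 52.6% and 50.6% of the 3′ UTRs, against 8.85% for GCCCATC. The words were chosen by the fold changes of these same libraries, so what their carriers did is a description and supports nothing. In the GENCODE 29 transcript models (GRCh38) the words start at bases 384 and 71 of a CBFB 3′ UTR of 2326 bases. The sites are shown 5′ to 3′ with the word in capitals.
CBFB, siNCOA3 word: tttaaaaacaaGTCAAGAaattaaaattg
CBFB, siSHC1 word: agatgtgtgctGCCCATCtttacatacac
CTSW, siSHC1 word: cccaggtttttGCCCATCctcccaatctc
The line for CTSW shows a transcript that stood lower after both siRNAs but carries a single word. LSP1 and FMNL1 carry neither word. Carriers among the named genes went both ways. TMCC1, with the siSHC1 word, stood at 0.69 after siSHC1, and GPRC5A, with the siNCOA3 word, at 0.59 after siNCOA3. SLC37A2, with the siSHC1 word, stood at -0.64 after siSHC1. No siRNA sequence was used here, and whether either word matches an siRNA seed was not tested.

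Of 10910 tested genes with a 3′ UTR of at least 30 bases, 171 carry both words, and CBFB had the lowest pooled difference of the 171. Lower in all 4 pairs were 38 of these 171 genes, or 22.2%. Among genes with the siNCOA3 word only the share was 15.8%, among those with the siSHC1 word only 15.6%, and among those with neither 11.5%. The groups were not matched for length or base content of the 3′ UTR, and the part of these in the shares was not tested. The median difference of the 171 genes was -0.04 after siNCOA3 and -0.11 after siSHC1, and that of genes with neither word was 0.01 and 0.02. Next to CBFB among them stood LIMD2, with -0.40 after siNCOA3 and -1.87 after siSHC1, and TMEM164, with -0.08 and -1.41, so that most of their pooled difference came from siSHC1. Carriers did not all stand lower: C15orf40, with both words, stood at 0.65 after siNCOA3 and 0.56 after siSHC1.

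**Figure D1:**
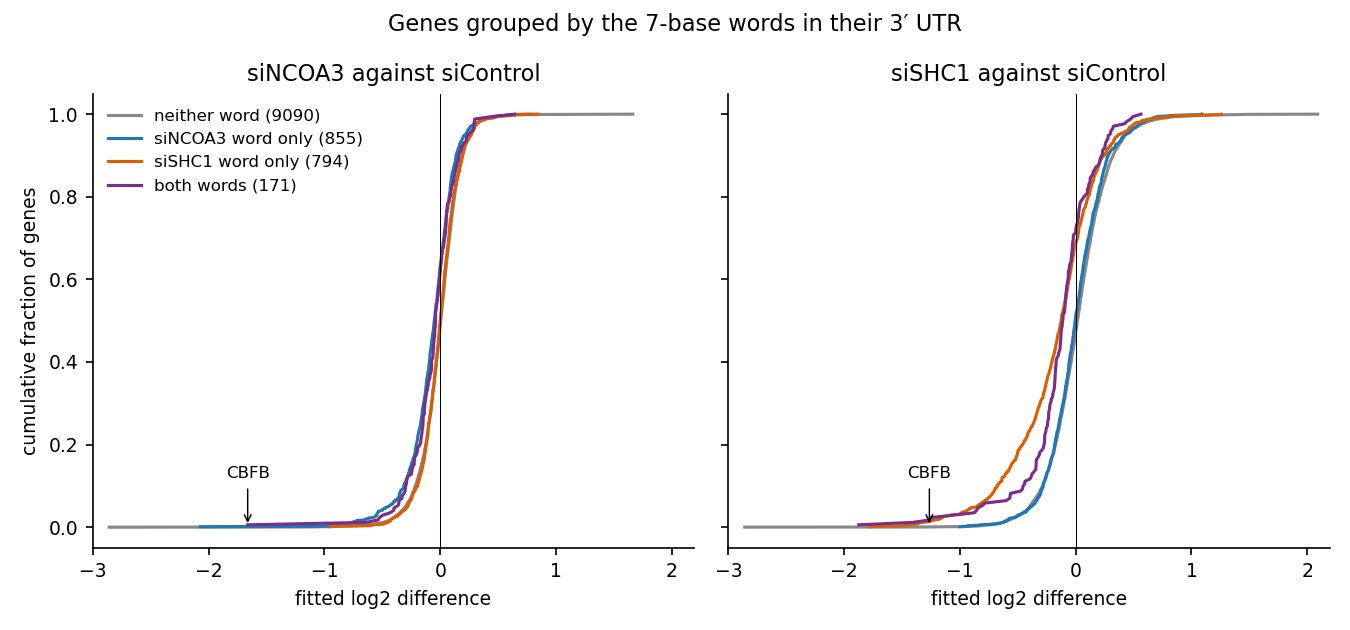
Cumulative fraction of genes (y) by fitted log2 difference from siControl (x), after siNCOA3 on the left and siSHC1 on the right, for genes with neither, either or both of the 7-base words in the 3′ UTR. CBFB, marked by arrows at -1.66 and -1.26, lies in the left tail of both panels, and in each panel the curves of genes with that siRNA's word lie left of the 9090 genes with neither word over most of their range.

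LSP1 (chromosome 11) stood at 7.37 FPKM in siControl at 24 h and at 5.08 FPKM in siControl at 48 h, and it was listed at 0 in all 4 knockdown libraries. The groups do not overlap, and no fold can be given against values listed at 0. Its fitted difference was -2.86 ± 0.17 (SE, limma adjusted p = 0.0217), a size that depends on the pseudocount. LSP1 met the filter of 1 FPKM in 2 libraries through the siControl libraries alone, and a gene let in that way had to stand lower in the knockdowns, so the p gives no independent support. With 4 of the 6 values at an exact 0, the knockdown libraries have no spread of their own. The call did not hold with a pseudocount of 0.1 or 5 (limma adjusted p = 0.0564 and 0.0786), without a filter on low values (limma adjusted p = 0.128), or when any single library was left out (limma adjusted p from 0.0678 to 0.810). An exact 0 in such a table can be a failed estimate, and 5 tested genes were listed at 0 in some library while another library gave them at least 5 FPKM. LSP1 was 1 of these 5, and it was the tested gene listed at 0 in all 4 knockdown libraries with at least 1 FPKM in both siControl libraries.

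LSP1 and CTSW, which encodes cathepsin W, are both known from leukocytes. CTSW stood at 1.72 and 1.81 FPKM in siControl, at 0.47 and 0.44 after siNCOA3, and at 0.22 FPKM and listed at 0 after siSHC1, at 24 h and 48 h. Its pooled difference was -1.15 ± 0.20 (SE, limma adjusted p = 0.913). Of 6 defining leukocyte markers 5 stayed under 1 FPKM in every library, with the pan-leukocyte PTPRC at no more than 0.0549 FPKM and the T cell gene CD3E at no more than 0.0311 FPKM. CD14 was the exception at 3.24 to 7.51 FPKM. The summed level of the 6 markers was 3.30 and 7.78 FPKM in siControl and 3.85 to 6.86 FPKM in the knockdowns, and these ranges overlap. Among 24 tested actin regulators, 2 (8.33%) were higher and 6 (25.0%) lower in all 4 pairs, against 13.3% and 12.3% of all tested genes. Their median was -0.01 and turned to 0.03 without scaling. After LSP1 the lower ones were led by the tropomyosins TPM4 at -0.18 and TPM2 at -0.21, neither of which passed.

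FMNL1 (chromosome 17) stood at 42.1 and 56.0 FPKM in siControl, at 32.4 and 35.2 after siNCOA3, and at 27.2 and 32.7 after siSHC1, a pooled difference of -0.64 ± 0.10 (SE, limma adjusted p = 0.913). In FPKM its siControl libraries differed more from each other than the knockdown libraries did, which does not hold on the scaled log2 values. The siRNA difference of FMNL1 was -0.16 (95% interval -0.36 to 0.05).

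Among the remaining genes averaging at least 5 FPKM, the rule named as lower AC104534.3, GALNT6, SLC37A2, WDYHV1 and HRSP12. AC104534.3, known by its clone name, stood at 26.4 and 28.2 FPKM in siControl and at 15.1 to 19.1 FPKM in the knockdowns. GALNT6, an enzyme that starts mucin-type O-glycosylation, stood at 15.6 and 19.1 against 9.62 to 12.4 FPKM. SLC37A2, a sugar phosphate transporter, stood at 47.7 and 54.8 against 30.3 to 39.3 FPKM. In none of these did the groups overlap, and the same held for WDYHV1, a glutamine amidase, at 27.1 and 28.9 against 16.3 to 21.3 FPKM. HRSP12, an imine deaminase, stood at 7.32 and 7.41 against 4.70 to 5.73 FPKM. The pooled differences of these 5 genes ran from -0.67 to -0.47, and none passed (limma adjusted p = 0.913 for each). Over all tested genes 7.26% had all 4 knockdown libraries below both siControl libraries.

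**Figure D2:**
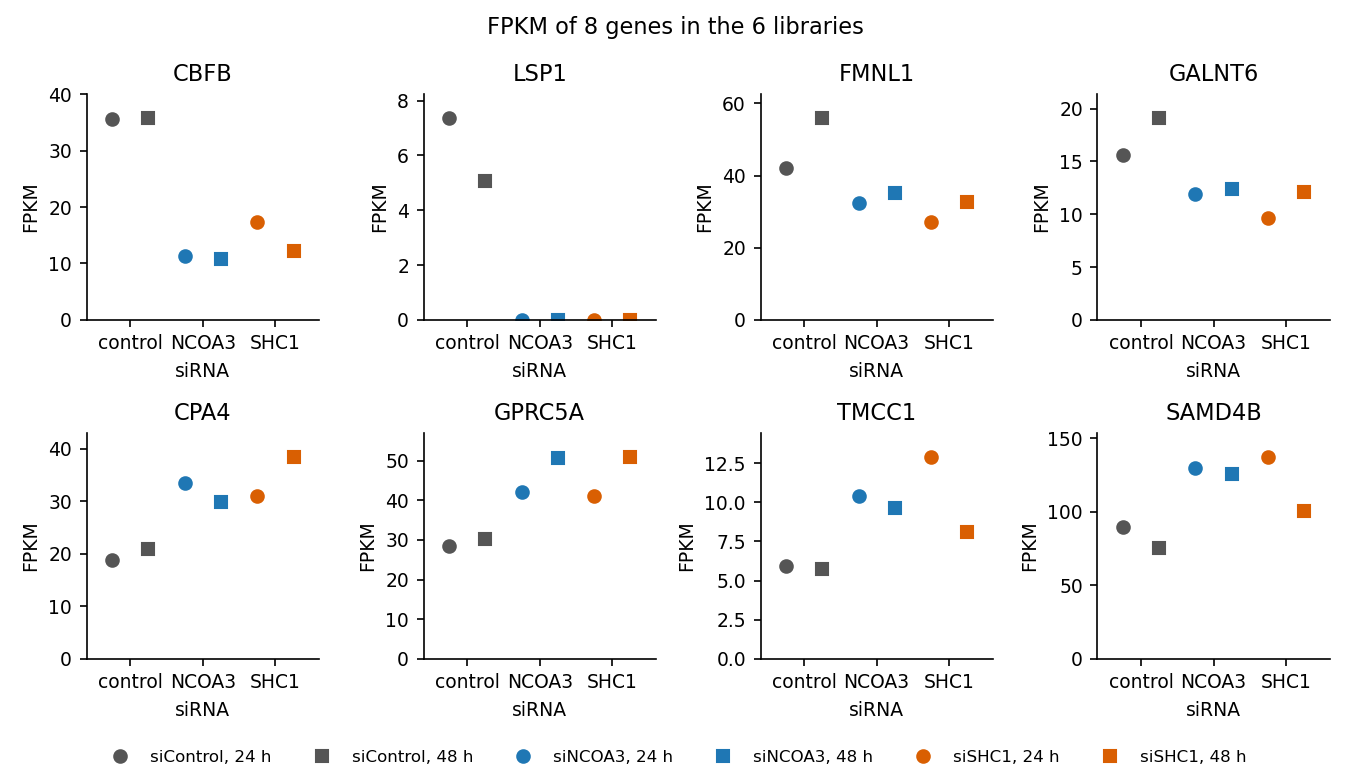
FPKM (y, linear from 0) of 8 genes in the 6 libraries (x, by siRNA), with circles for 24 h and squares for 48 h and 1 point per library. In all 8 panels the 4 knockdown points lie on the same side of both siControl points, and for LSP1 they lie at 0. The genes shown are ones whose groups do not overlap, so this separation follows from their choice. Of all tested genes 8.08% had all knockdown libraries above both siControl libraries and 7.26% below.

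Turning to the genes that stood higher, CPA4 (chromosome 7) was at 18.8 and 21.0 FPKM in siControl, at 33.4 and 29.8 after siNCOA3 and at 31.0 and 38.4 after siSHC1. Its smallest change over the 4 pairs, 0.50, was the largest among higher genes that averaged at least 5 FPKM. GPRC5A (chromosome 12) stood at 28.5 and 30.2 FPKM in siControl, at 42.1 and 50.6 after siNCOA3 and at 41.1 and 51.0 after siSHC1. At each time the 2 siRNAs gave almost the same GPRC5A level, and their difference was 0.00 (95% interval -0.25 to 0.25). The pooled differences were 0.66 ± 0.13 for CPA4 and 0.59 ± 0.10 for GPRC5A (SE, limma adjusted p = 0.913 for both).

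TMCC1 (chromosome 3) was at 5.96 and 5.71 FPKM in siControl and at 8.13 to 12.9 FPKM in the knockdowns, and SAMD4B (chromosome 19) at 89.4 and 75.7 against 101 to 137 FPKM. EDN2, the vasoconstrictor peptide endothelin 2, stood at 4.24 and 3.83 FPKM in siControl, at 6.46 and 7.58 after siNCOA3 and at 7.70 and 9.31 after siSHC1. For AMMECR1 the values were 3.70 and 3.13 FPKM in siControl and 4.44 to 6.80 FPKM in the knockdowns. None of these 4 genes overlapped between the groups, a pattern seen in 8.08% of all tested genes in this direction. Their pooled differences ran from 0.53 to 0.75 (limma adjusted p = 0.913 for each).

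The remaining pair, TRIM29 and AQP3, moved the same way in all 4 pairs but by unequal amounts. TRIM29, a protein of basal epithelia, stood at 1.64 and 3.90 FPKM in siControl, at 2.90 and 7.80 after siNCOA3 and at 7.999 and 25.9 after siSHC1. The siNCOA3 library of 24 h lies below the siControl library of 48 h, so the groups overlap. AQP3, a water and glycerol channel, stood at 2.44 and 2.58 FPKM in siControl, at 3.90 and 4.67 after siNCOA3 and at 7.66 and 10.6 after siSHC1. The siSHC1 level exceeded the siNCOA3 level by 1.42 (95% interval 0.99 to 1.85, limma adjusted p = 0.00812) for TRIM29 and by 0.94 (95% interval 0.60 to 1.27, limma adjusted p = 0.0135) for AQP3. Over all tested genes 1139, or 9.74%, differed between the siRNAs (limma adjusted p under 0.05), and of the 2988 genes of like sign 133 did, or 4.45%. Genes that the siRNAs moved in opposite directions cannot be among the 2988, so the lower share is partly set by the selection. The 1139 became 4 without a filter on low values, and leaving out 1 knockdown library gave 231 (siNCOA3, 48 h), 309 (siSHC1, 48 h), 657 (siNCOA3, 24 h) or 697 (siSHC1, 24 h). Against siControl alone, siNCOA3 gave 13 called genes, or 0.111%, and siSHC1 751, or 6.42%, in a fit where both used the same siControl libraries.

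**Figure D3:**
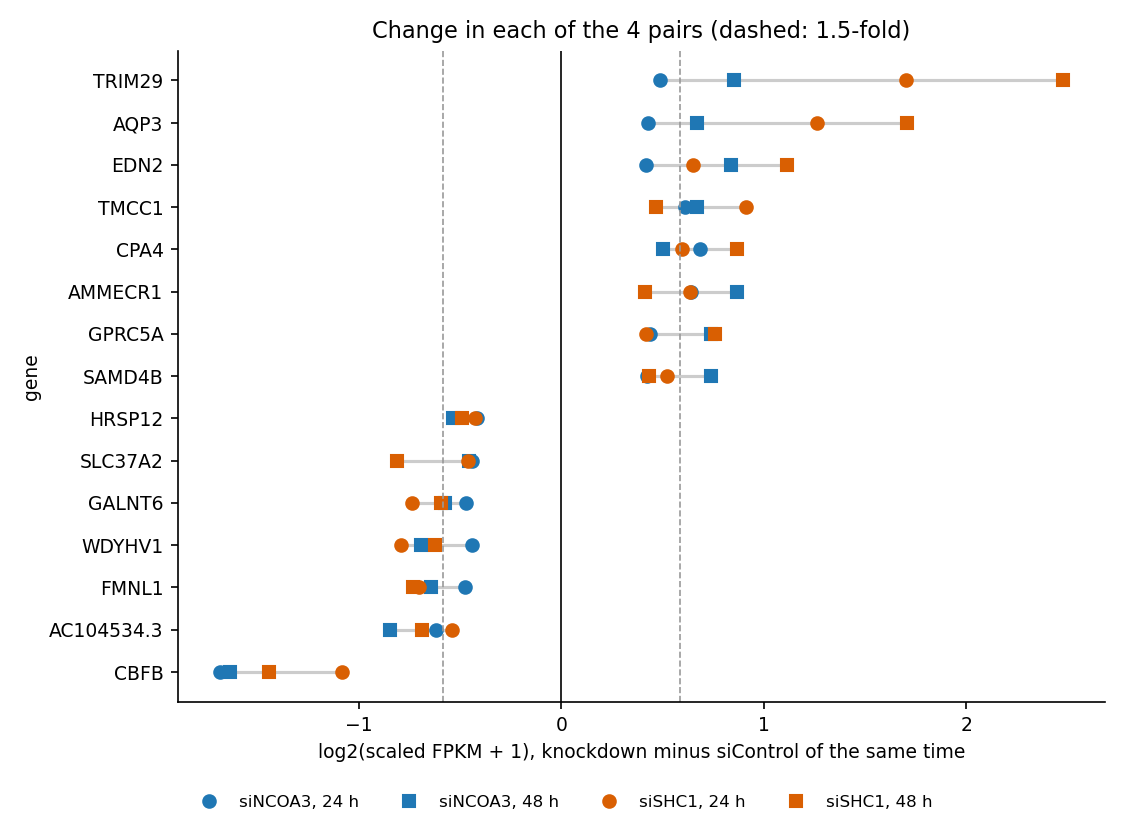
Change of the log2 value in each of the 4 pairs (x) for 8 higher and 7 lower genes named by the rule (y), with blue for siNCOA3, orange for siSHC1, circles for 24 h and squares for 48 h, and dashed lines at 1.5-fold. CBFB lies past the line in all 4 pairs, and TRIM29 and AQP3 spread widest, with the siSHC1 points farthest out.

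Among the 7 genes past 1.5-fold in every pair were LSP1, CBFB, CTSW and the read-through genes RBM14-RBM4, ISY1-RAB43 and PTGES3L-AARSD1. The last 4 were chosen after their values were seen. RBM14-RBM4, the higher one, stood at 0.47 and 1.66 FPKM in siControl, at 5.83 and 4.94 after siNCOA3 and at 10.03 and 5.27 after siSHC1. A read-through transcript shares its sequence with 2 neighbouring genes, so how reads were divided among them is uncertain. RBM14 itself stood at 26.3 to 40.2 FPKM and RBM4 at 40.7 to 46.5 FPKM, with overlapping groups. ISY1-RAB43 stood at 1.91 and 2.09 FPKM in siControl and at no more than 0.91 FPKM in the knockdowns, and PTGES3L-AARSD1 at 1.60 and 1.51 against 0.27 to 0.71 FPKM. Like LSP1 and CTSW, ISY1-RAB43 and PTGES3L-AARSD1 met the filter on low values through siControl alone. Genes let in that way had to stand lower, so their falls carry no independent support. The smallest change of the last gene inside the limit, PTGES3L-AARSD1, was 0.66 and that of the first outside, AC018816.3, was 0.56.

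A fit with separate terms for the siRNAs, in which the average of the knockdowns was set against siControl, leaves differences between the siRNAs out of the error. It called 32 genes, or 0.274%, 4 higher (0.0342%) and 28 lower (0.240%) (limma adjusted p under 0.05). Of these 32 genes 2 were higher and 17 lower in all 4 pairs, and 13 had mixed signs. In 26 of the 32, NCOA3 and SHC1 among them, the siRNAs also differed from each other (limma adjusted p under 0.05). The other 6, all lower, included LSP1, CBFB, CTSW, AC104534.3 and FMNL1. The adjusted p in this fit was 0.0108 for CBFB, 0.0402 for AC104534.3 and 0.0396 for FMNL1 (limma). LSP1 and CTSW passed the filter on low values only through siControl, where they are high, and their calls here carry no independent support. A siRNA difference that did not pass does not show that the siRNAs acted alike, and for CBFB and CTSW its unadjusted 95% interval leaves out 0.

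**Figure D4:**
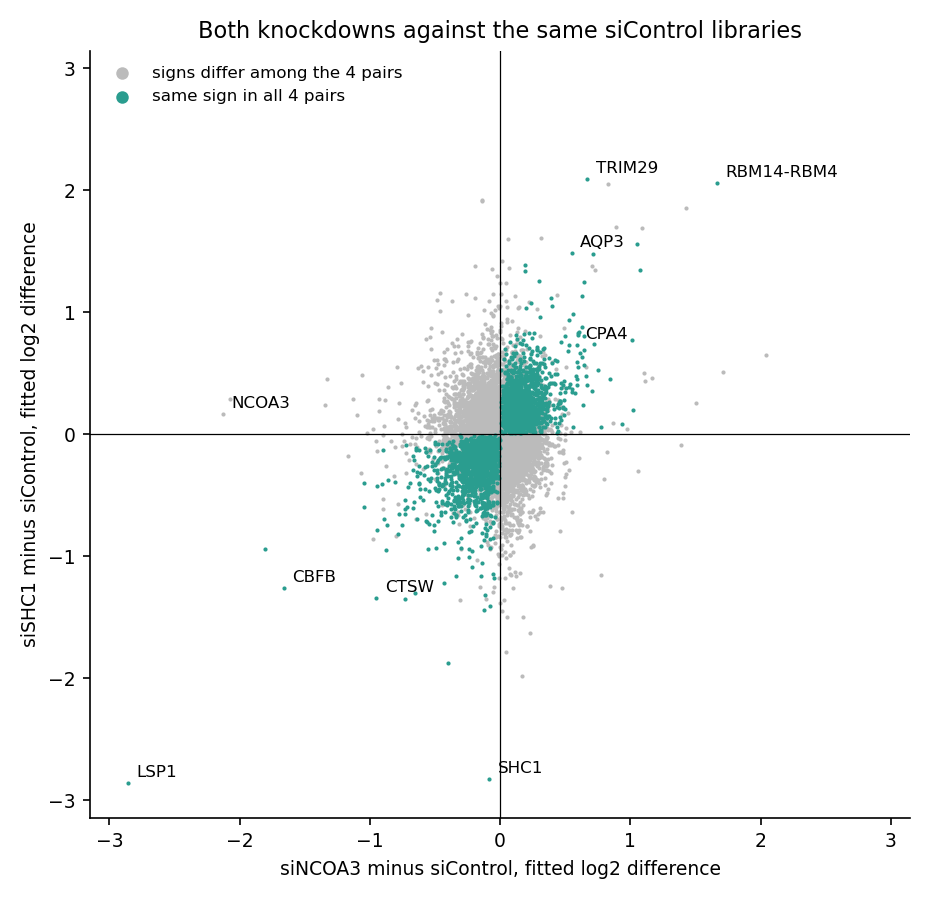
Fitted log2 difference from siControl after siNCOA3 (x) and after siSHC1 (y) for the 11690 tested genes, with green points for genes of the same sign in all 4 pairs. Both axes use the same siControl libraries, which by itself draws points along the diagonal. LSP1 and CBFB stand out at the lower left, and NCOA3 and SHC1 lie near the axes.

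Gene lists were described by how many of their tested members were higher or lower in all 4 pairs, to be read beside 13.3% and 12.3% of all tested genes. The lists were chosen with earlier results known, and shared siControl libraries move members of a list together. Of all list members LSP1 was called, and values of other members are given without a call. Cytosolic ribosomal proteins, which make up the translating ribosome, had 41 of 78 members higher and 0 lower, or 52.6%. Their median was 0.10, at 0.11 and 0.21 after siNCOA3 and at 0.03 and 0.05 after siSHC1 (24 h and 48 h). With equal totals 16 were higher and 1 lower, and with the siControl library of the other time 23 were higher. RPL23A stood at 0.19, RPL37 at 0.16, and RPS21 at 0.17, and because such genes have many near-identical copies their single values are uncertain.

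Energy and antioxidant genes also leaned upward. Of 50 nuclear-encoded genes of oxidative phosphorylation 23, or 46.0%, were higher and 0 lower in all 4 pairs, with a median of 0.08. With equal totals 17 were higher and 1 lower, and with the siControl library of the other time 18 were higher. Among them NDUFA6 and NDUFB8 of complex I stood at 0.16 and 0.19, and UQCRQ and CYC1 of complex III at 0.17 and 0.19. Of the 13 mitochondrially encoded transcripts 4 were higher and 0 lower, led by MT-ND1 at 0.15. Under equal totals 2 of them were higher, and 6 with the siControl library of the other time. Of 24 NRF2 targets 12, or 50%, were higher and 0 lower, with a median of 0.11, with 7 higher and 1 lower under equal totals and 6 higher with the siControl library of the other time. HMOX1, the haem oxygenase, stood at 0.26, the aldo-keto reductases AKR1C1 and AKR1C2 at 0.26 and 0.23, and the peroxiredoxin PRDX1 at 0.14.

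NF-kB and cytokine genes leaned downward, with 0 of 22 members higher and 9 lower, or 40.9%, and a median of -0.20. With the siControl library of the other time 6 were lower. The neutrophil chemokines CXCL1, IL8 and CXCL2 stood at -0.98, -0.63 and -0.50 at mean levels of 1.95, 3.51 and 1.42 FPKM, with siControl and knockdown libraries overlapping in each. NFKBIA, the inhibitor that NF-kB itself induces, stood at -0.34 at a mean of 101 FPKM. The lowest median of the 4 libraries was -0.28, after siNCOA3 at 48 h, and the highest was -0.04, after siSHC1 at 24 h. Of 35 interferon response genes, which report the sensing of foreign RNA, 4 were higher and 1 lower, with IRF7 at 0.28, IFIT5 at 0.18, USP18 at 0.19 and the RNA sensor IFIH1 at -0.20. Among 13 genes of the RNA interference machinery 0 were higher and 3 lower, with TNRC6C at -0.38, DROSHA at -0.34 and AGO1 at -0.12. TNRC6C was at -0.64 after siNCOA3 and at -0.13 after siSHC1, and the siRNA difference passed (limma adjusted p = 0.0339). AGO1 changed by only -0.008 after siSHC1 at 24 h.

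Cell cycle lists had negative medians, lower after siSHC1 than after siNCOA3. Members lower in all 4 pairs numbered 6 for G2/M and 4 for G1/S with the siControl library of the other time, 6 for each without scaling, and 18 and 13 with equal totals. Of 45 genes of G2/M and mitosis 1 was higher and 14 lower, or 31.1%, with a median of -0.09, and medians of -0.08 and 0.02 after siNCOA3 against -0.20 and -0.13 after siSHC1. CCNB1, the mitotic cyclin, stood at -0.16, DLGAP5 at -0.17 and the kinase AURKB at -0.14, while HMMR stood at 0.17. Among 43 G1/S and replication genes 5 were higher and 10 lower, with a median of -0.11, and medians of 0.02 and 0.02 after siNCOA3 against -0.13 and -0.22 after siSHC1. The helicase subunits MCM3 and MCM5 stood at -0.37 and -0.17, the ligase LIG1 at -0.37 and the polymerase subunit POLA2 at -0.24. MCM3 was at -0.38, -0.53, -0.22 and -0.35 after siNCOA3 at 24 h and 48 h and siSHC1 at 24 h and 48 h, unlike the list's median after siNCOA3.

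**Figure D5:**
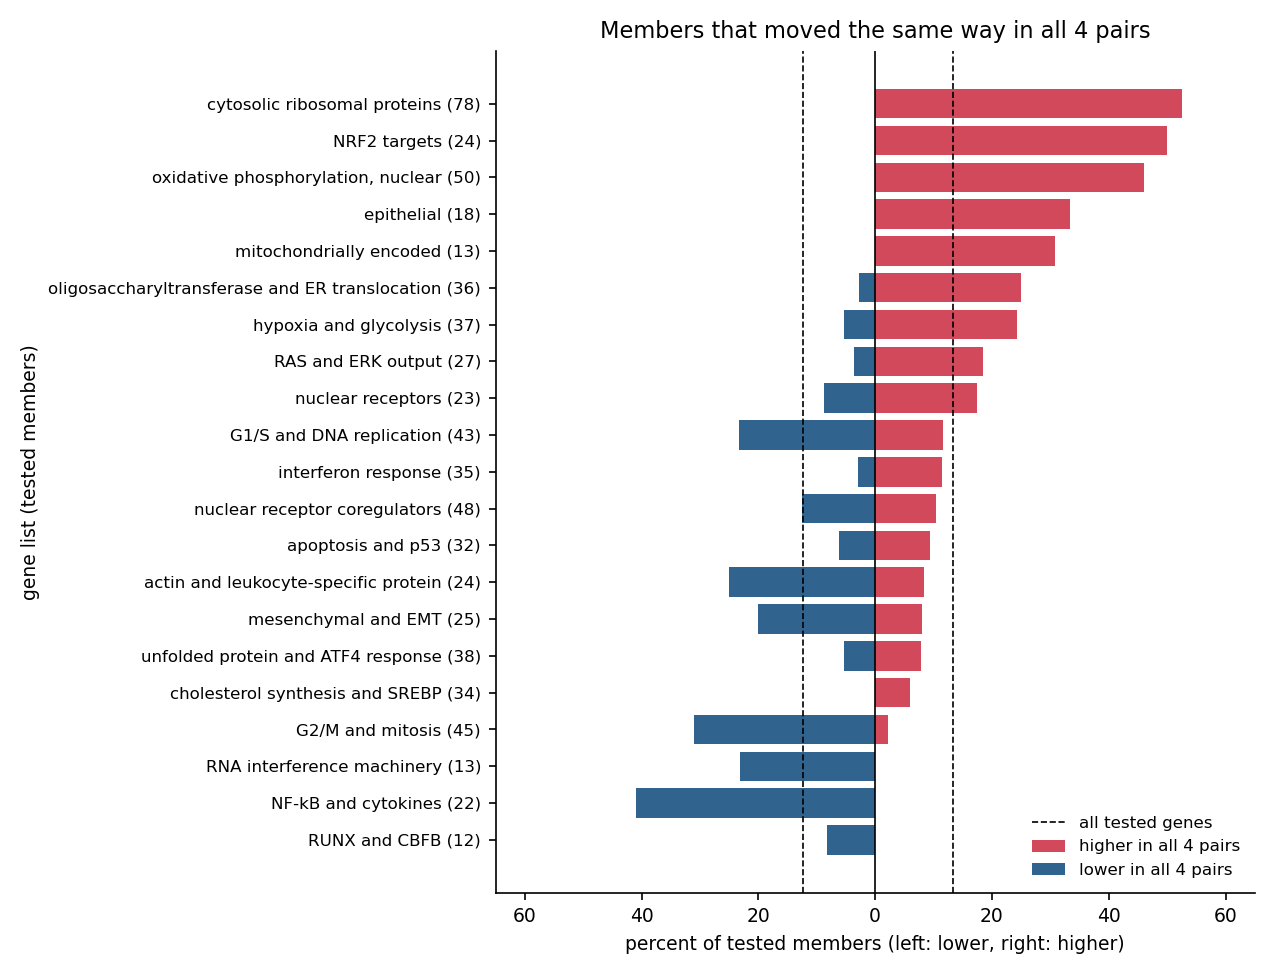
Percent of the tested members of each gene list (y, number tested in brackets) that were higher (right, red) or lower (left, blue) in all 4 pairs, with dashed lines at the 13.3% and 12.3% of all tested genes. Ribosomal proteins, NRF2 targets and oxidative phosphorylation reach farthest right, and NF-kB and cytokine genes farthest left.

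In the hypoxia and epithelial lists the medians of the siRNAs lay apart. Of 37 genes of hypoxia and glycolysis 9 were higher and 2 lower, with a median of 0.24, but the medians were 0.12 and -0.11 after siNCOA3 against 0.36 and 0.44 after siSHC1. In 20 of these 37 genes the siRNAs differed (limma adjusted p under 0.05), against 1139 of 11690, or 9.74%, of all tested genes. The number over all genes changed much with the filter and the libraries used, and the list was not recounted under those settings. HK2, which phosphorylates glucose, stood at 0.31 and was higher by 0.24 and 0.22 after siNCOA3 and by 0.36 and 0.43 after siSHC1, while PGK1 stood at -0.26. Of 18 epithelial genes 6 were higher and 0 lower, with a median of 0.25, and with the siControl library of the other time 2 were higher and 1 lower. The medians of this list were 0.09 and -0.01 after siNCOA3 against 0.36 and 0.54 after siSHC1 (24 h and 48 h). In 7 of the 18 the siRNAs differed (limma adjusted p under 0.05). Besides TRIM29, the paired simple keratins KRT8 and KRT18 stood at 0.24 and 0.21, and KRT8 changed by 0.20 to 0.27 in every pair.

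Nuclear receptors and their coregulators were listed because NCOA3 is such a coregulator. Of 23 tested receptors 4 were higher and 2 lower in all 4 pairs, with RARA at 0.33, NR2F2 at 0.27, NR1H2 at 0.17 and PPARD at -0.17. Of 48 tested coregulators, NCOA3 not included, 5 were higher and 6 lower, with a median of 0.01 that turned to -0.04 with equal totals, where 2 were higher and 11 lower. SIRT1, a deacetylase that acts as a corepressor, was at -0.56 and -0.34 after siNCOA3 and at -0.54 and -0.31 after siSHC1. Of 27 ERK output genes, which read out signalling through RAS, 5 were higher and 1 lower, with FOS at -0.64, DUSP1 at 0.45, MYC at 0.22 and DUSP5 at 0.22.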

How the data were processed

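The members and gene lists were chosen with earlier results of these data known. The submitters' processing notes name STAR, Cufflinks, DESeq2 and hg19, with no roles or versions. Of the annotation and of strand use, nothing was stated. The values the authors deposited are FPKM for 20111 gene symbols. They are not whole numbers, although the table is named for counts. Between 46.5% and 48.9% of ratios among values below 0.3 FPKM fell on whole-fragment steps (tolerance 0.02, log2), too few to recover fragments, so that no counting intervals are given.

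From these, FPKM were scaled by the median of ratios over 11042 genes with at least 1 FPKM in all 6 libraries (factors 0.947 to 1.02). Genes with at least 1 scaled FPKM in 2 libraries were tested on log2(FPKM + 1) for knockdown and time, with limma version 3.58.1 (R 4.3.3) and its moderated variance, trended and robust. P-values were adjusted by Benjamini-Hochberg, with a threshold of 0.05. The difference between the siRNAs came from a fit with separate siRNA terms. The script was tested on simulated data.

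NCOA3, SHC1, CBFB and LSP1 are always named. The rule then takes up to 12 called genes in each direction with a mean of at least 5 FPKM and the same sign in all 4 pairs, ordered by their smallest change and filled up to 8 without a call. From each list it takes up to 4 members in the same order. Of 789 listed symbols 781 were matched. The longest 3′ UTR of each gene came from GENCODE 29, GRCh38, matched by symbol to 93.3% of tested genes, and words carried by at least 50 genes were ranked by a z for the difference in mean. Chromosomes came from RefSeq. Alternatives in scaling, filter, pseudocount, model and libraries are given at the end. Some genes that the rule names are not reported here.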

Additional observations from a re-analysis of the deposited data

Results flagged for a closer look

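The targeted transcripts differed between the siRNAs in opposite directions, with siSHC1 minus siNCOA3 at 2.29 for NCOA3 and -2.74 for SHC1 on the log2 scale (limma adjusted p = 0.000367 and 6.28e-05). TRIM29 at 1.42 and AQP3 at 0.94 also differed between the siRNAs by the same test. For SLC37A2, 1 library stood far from the other 3: the siSHC1 library of 48 h was at -0.81, against -0.46, -0.46 and -0.44, a gap of 0.955 of the whole range. Chance alone puts about 1 in 20 such groups past the limit used, Dixon's 95% value.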

How the results depend on the processing

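The call of 1 gene became 0 without a filter on low values, with a mean of at least 5 FPKM, with a pseudocount of 0.1 or 5, with at least 1 FPKM in all 6 libraries (an alternative chosen after the data were seen) and without each library in turn (0 to 0), where limma gave 801, 382, 523, 523, 480 and 167 to 1051 genes at an unadjusted p under 0.05. LSP1 has a mean under 5 FPKM and values listed at 0, so 2 of these settings leave it out by construction, and for the other settings the cause was not tested. With averaged siRNA terms 32 genes were called, 4 higher and 28 lower. The other settings gave 1 gene called lower, among them the fit without the time term (no replicate block), also 1. Time stands in the model as the block, and the labels give no replicate numbers beyond it. Genes past 1.5-fold in all 4 pairs numbered 2 with a mean of at least 5 FPKM, with a pseudocount of 5 and with 1 FPKM in every library, 19 with a pseudocount of 0.1 and 12 with the siControl library of the other time. Genes that differed between the siRNAs numbered 1139, 4 without a filter, 450 without the time term, and 231 to 967 without each library in turn, with 657 and 697 without siNCOA3 and siSHC1 at 24 h, and 231 and 309 without them at 48 h. The cause of these changes was not tested. Among single named genes under alternatives, 363 values kept their direction and their side of the threshold, 9 lost the call (LSP1 each time), 9 gained one (with averaged siRNA terms each time) and 0 turned. No scaling moved the median of all genes by over 0.04 on the log2 scale.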

Other observations

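Mesenchymal genes and genes of apoptosis and p53 gave counts in both directions. Of 25 mesenchymal genes 2 were higher and 5 lower in all 4 pairs. COL1A1, a fibrillar collagen chain, stood at 0.75 and ZEB2, a repressor of epithelial genes, at 0.46, while the membrane protease MMP14 stood at -0.44. For COL1A1 the siSHC1 level exceeded the siNCOA3 level by 0.73 (limma adjusted p = 0.0187), so the siRNAs did not share its pooled difference equally. MMP14 was at 190 and 237 FPKM in siControl and at 139 to 181 FPKM in the knockdowns, so the groups did not overlap. Of 32 apoptosis and p53 genes 3 were higher and 2 lower. The cell cycle inhibitor CDKN1A stood at 0.35 and was higher by 0.22 and 0.24 after siNCOA3 and by 0.30 and 0.64 after siSHC1. BCL2L1, the survival gene, was lower by -0.88 and -0.91 after siNCOA3 and by -0.13 and -0.12 after siSHC1, a difference between the siRNAs that passed (limma adjusted p = 0.00265). None of these genes was called in the pooled comparison.

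Promoters from 250 bases before to 50 after the start were taken from RefSeq (GRCh38.p14) and searched on both strands for TGTGGT, the core that RUNX proteins bind. Of 23 named genes 11 had a promoter in the table, CBFB and LSP1 not among them. TMCC1, which has several promoters there, was the gene with a match. Of all 35116 promoters 13.1% held a match, a share of promoters and not of genes.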
